A study of Mus musculus with 13 samples.

Results

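The 9 genes described here encode 3 ion channels that open under mechanical load or swelling (Piezo1, Piezo2 and Trpv4), both coactivators at the end of the Hippo pathway (Yap1 and Wwtr1, the gene of TAZ) and 4 widely used target genes of these coactivators (Ccn1, Ccn2, Ankrd1 and Amotl2). They were taken by symbol from the deposited table, which holds 18748 genes and has each of the 9 under its current name. All 9 had enough counts to be tested, among 14067 tested genes. Messenger RNA came from the mandibular condylar cartilage of the temporomandibular joint, with 6 libraries of aged mice (18 months) and 7 of young mice (2 months). The study asks which genes differ between the ages. Strain, sex, treatment and whether each library is 1 mouse are not given in the sources used here, so the p-values measure the spread between these libraries.

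PIEZO1 and PIEZO2 are large cation channels that open when the membrane is stretched, and TRPV4 is a calcium-permeable channel of chondrocytes that answers to osmotic and mechanical stimuli. YAP and TAZ enter the nucleus when cells are spread or under tension, bind TEAD transcription factors there and switch on target genes. The LATS kinases of the Hippo pathway phosphorylate both proteins and keep them out of the nucleus, so the activity of YAP and TAZ is set largely at the protein level, which RNA does not show. The condylar cartilage is loaded during chewing, and PIEZO channels and TRPV4 are studied in chondrocytes as load sensors.

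Of the 7 members matched in the RefSeq promoter table (build GRCm38.p6, not the build named for these data), 5 hold the core of the TEAD binding motif in a window from 250 bases before to 50 bases after the gene start. The motif searched was GGAATG, or CATTCC when read from the other strand, and 14.7% of all 32851 windows in the table hold it. This share counts windows, whereas the 5 of 7 counts genes, and Wwtr1 has 2 windows that both hold the motif. The windows of the 3 target genes that hold it are shown because all 3 carry this letter pattern. Capitals mark the motif, and each sequence runs 5′ to 3′ on the strand of its gene. The window of Ccn1 is chr3:145649936-145650235 on the minus strand, that of Ankrd1 is chr19:36119795-36120094 on the minus strand and that of Amotl2 is chr9:102717554-102717853 on the plus strand.
Ccn1: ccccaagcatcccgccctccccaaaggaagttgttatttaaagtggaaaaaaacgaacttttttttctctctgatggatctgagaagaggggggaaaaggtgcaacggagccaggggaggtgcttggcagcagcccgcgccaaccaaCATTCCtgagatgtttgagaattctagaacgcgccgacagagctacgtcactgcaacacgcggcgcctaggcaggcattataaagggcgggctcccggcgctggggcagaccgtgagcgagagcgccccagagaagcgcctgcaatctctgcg
Ankrd1: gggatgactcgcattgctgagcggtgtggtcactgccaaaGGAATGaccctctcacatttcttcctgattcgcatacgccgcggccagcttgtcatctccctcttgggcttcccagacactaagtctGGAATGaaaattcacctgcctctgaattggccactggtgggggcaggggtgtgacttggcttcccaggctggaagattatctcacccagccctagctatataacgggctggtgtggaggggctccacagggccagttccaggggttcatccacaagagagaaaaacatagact
Amotl2: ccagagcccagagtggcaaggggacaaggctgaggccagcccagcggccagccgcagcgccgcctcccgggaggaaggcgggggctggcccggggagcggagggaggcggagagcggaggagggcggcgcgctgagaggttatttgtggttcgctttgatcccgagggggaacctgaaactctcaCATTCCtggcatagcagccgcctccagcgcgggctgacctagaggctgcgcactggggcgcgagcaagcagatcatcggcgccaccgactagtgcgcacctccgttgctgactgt

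The motif began 103 bases before the start of Ccn1, 65 bases before that of Amotl2, and 210 and 123 bases before that of Ankrd1. Both coactivator genes hold it as well, 141 bases before the start of Yap1 and 136 bases before the first listed start of Wwtr1. The stretches around these last matches are short enough to compare.
Yap1: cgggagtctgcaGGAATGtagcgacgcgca
Wwtr1: ggtaaactcaaaGGAATGcagataggcgct
No match was found in the windows of Piezo1 and Trpv4. Ccn2 and Piezo2 are named only. A match in these letters is a description and says nothing of whether TEAD factors were bound in this tissue.

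Between the ages, the CCN genes Ccn2 and Ccn1 and the low-level gene Ankrd1 were higher in aged libraries. Piezo2 was lower, and Yap1 and Wwtr1 were lower by a small margin. Piezo1, Trpv4 and Amotl2 did not pass the test. Calls come from edgeR's quasi-likelihood test over all tested genes, with a Benjamini-Hochberg adjusted p under 0.05. Of the 9 members, 3 were called higher and 3 lower in aged mice, against a background of 24.7% of all tested genes called higher, 21.6% called lower and 46.2% called in either direction. For 4 members (Piezo2, Yap1, Ccn1 and Ccn2) no aged library overlapped with a young one, as held for 19.2% of all tested genes. With so many genes called, the counts alone do not set these genes apart, and the sizes and values follow gene by gene.

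**Figure D1:**
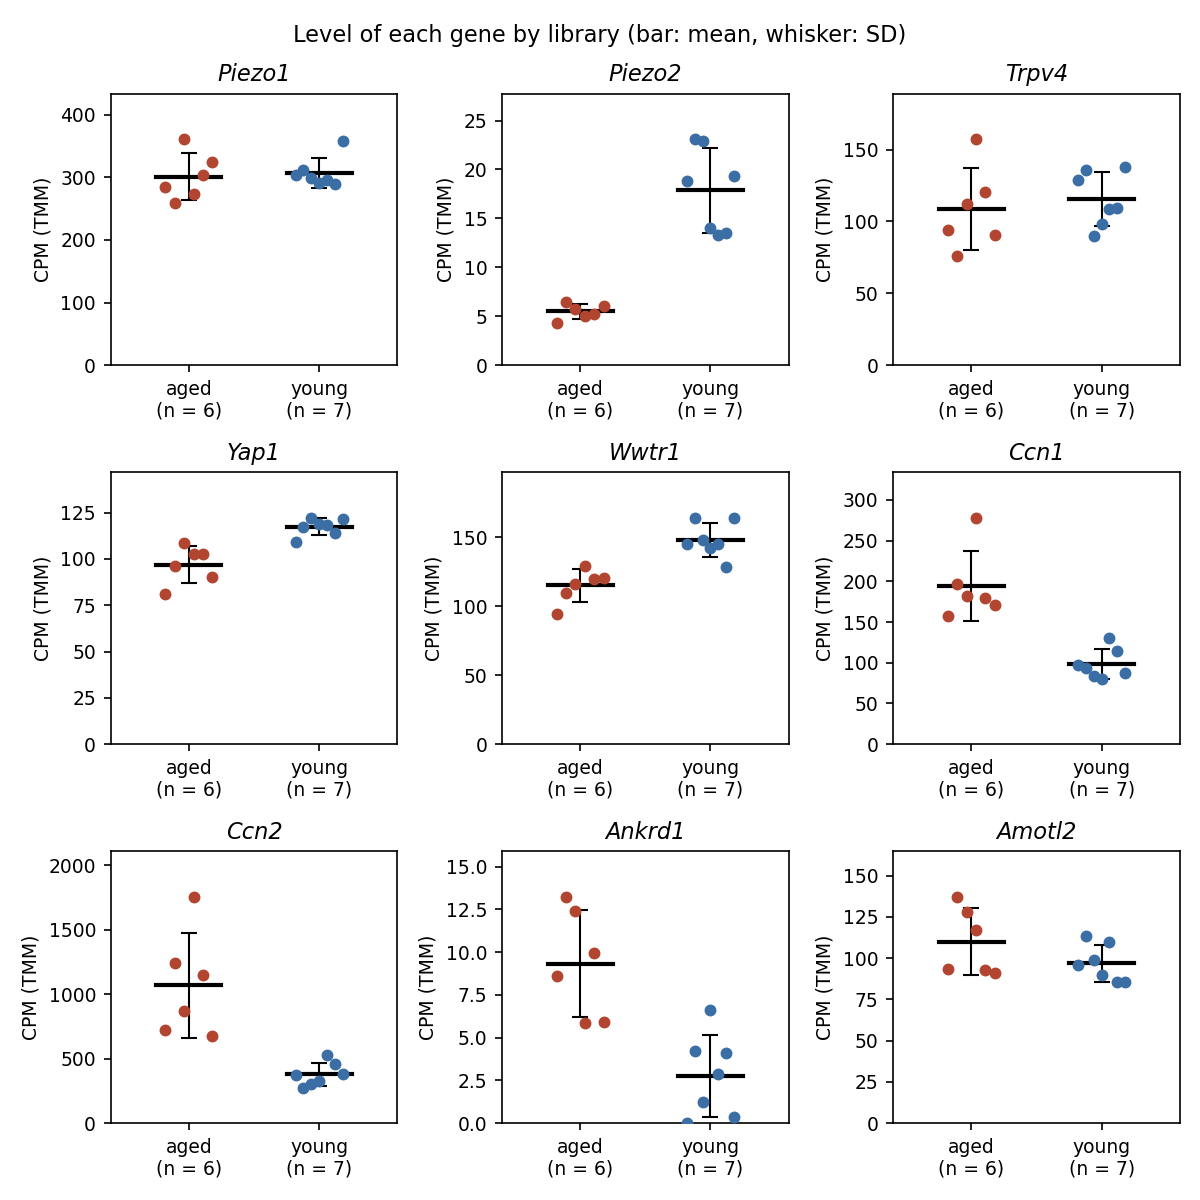
Level of each of the 9 genes in TMM-normalised CPM, 1 point per library, with 6 aged libraries left of 7 young ones; the bar is the mean and the whisker the SD. Ccn1, Ccn2, Piezo2 and Yap1 show no overlap between the ages, while Piezo1 and Trpv4 overlap widely. For Amotl2 some of the aged libraries lie above all young ones.

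Piezo2, the channel of touch and body position in sensory neurons, was the channel that differed with age. Its level in CPM, scaled by edgeR's TMM factors, had a lowest, median and highest value of 4.33, 5.48 and 6.48 in the 6 aged libraries, against 13.3, 18.8 and 23.1 in the 7 young libraries. The highest aged library thus lay below the lowest young one. The mean was 5.48 ± 0.779 CPM in aged (SD, n = 6) and 17.9 ± 4.31 CPM in young mice (SD, n = 7). The log2 fold change, aged over young, was -1.70 ± 0.16 (SE, edgeR adjusted p = 2.37e-06), that is 0.307 times the young level. These values rest on 88 to 119 reads per aged library and 220 to 392 per young library. In bulk RNA a lower share of cells of one type and less RNA per cell cannot be told apart. Of 10 markers of osteoblasts and osteocytes, 7 were called lower beside Piezo2 and 1 higher. Summed levels ran from 28522 to 41074 CPM in aged and 106210 to 127917 CPM in young libraries. Most of the sum was Col1a1, at a mean of 27257 CPM in aged and 102993 CPM in young mice. The osteocyte genes were split: Dmp1 and Phex were called lower (-1.30 and -1.61), Sost higher (0.84), and Mepe was not called (0.05). Schwann cell markers, as a sign of nerve tissue, moved the other way, with 3 of 6 called higher and summed levels of 62.5 to 84.2 CPM in aged and 31.7 to 42.1 CPM in young libraries. No marker of either list was at 0 in all libraries, and the part of these cells in the Piezo2 difference was not tested. Piezo2 was called lower under every alternative that was run, at -1.08 (edgeR adjusted p = 0.0247) with the erythroid and neutrophil score described with the CCN genes as a covariate.

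Piezo1, the broadly expressed PIEZO channel that also sits in red cells and vessel walls, was at similar levels in both ages. Its lowest, median and highest values were 259, 294 and 362 CPM in aged libraries and 289, 299 and 357 CPM in young ones. The log2 difference was -0.03 ± 0.08 (SE, edgeR adjusted p = 0.812), with a 95% interval from -0.20 to 0.15. The aged values enclose the young ones on both sides. With library sizes alone and no TMM factors Piezo1 stood at 0.20 (edgeR adjusted p = 0.0316), a setting under which the median of all tested genes moved to 0.24, so that relative to this median Piezo1 stood at -0.04 in both fits.

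Trpv4 was not called either. Its lowest, median and highest values were 76.2, 103 and 157 CPM in aged libraries and 89.7, 109 and 138 CPM in young ones, so the aged libraries reached both lower and higher. In the edgeR fit the change was -0.09 ± 0.16 (SE, edgeR adjusted p = 0.665) and the 95% interval ran from -0.42 to 0.24. A change of either sign within that interval cannot be told from none in these libraries. Aged replicate 4 held the highest Trpv4 value of all 13 libraries, and it also held the highest Ccn1 and Ccn2.

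The coactivator genes were lower in aged mice by less than the other called members. Yap1 had a lowest, median and highest value of 81.2, 99.4 and 108.7 CPM in aged libraries, against 109.0, 119 and 122 CPM in young ones, so the groups touched without overlapping. Its log2 fold change was -0.28 ± 0.06 (SE, edgeR adjusted p = 0.00291). Wwtr1 had 94.7, 118 and 129 CPM in aged libraries and 128, 145 and 164 CPM in young ones. Only the ends of the Wwtr1 ranges overlapped, since aged replicate 4 lay just above young replicate 6. Its log2 fold change was -0.36 ± 0.08 (SE, edgeR adjusted p = 0.00149). These differences depend on how libraries are scaled and on the blood cell score described with the CCN genes. With library sizes alone Yap1 stood at -0.05 (edgeR adjusted p = 0.445) and Wwtr1 at -0.14 (edgeR adjusted p = 0.0816), neither called. Relative to the median of all tested genes they stood at -0.29 and -0.38 in that fit, the same as with TMM factors. With this score in the fit Yap1 stood at -0.02 (edgeR adjusted p = 0.911) and Wwtr1 at -0.21 (edgeR adjusted p = 0.376), neither called.

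**Figure D2:**
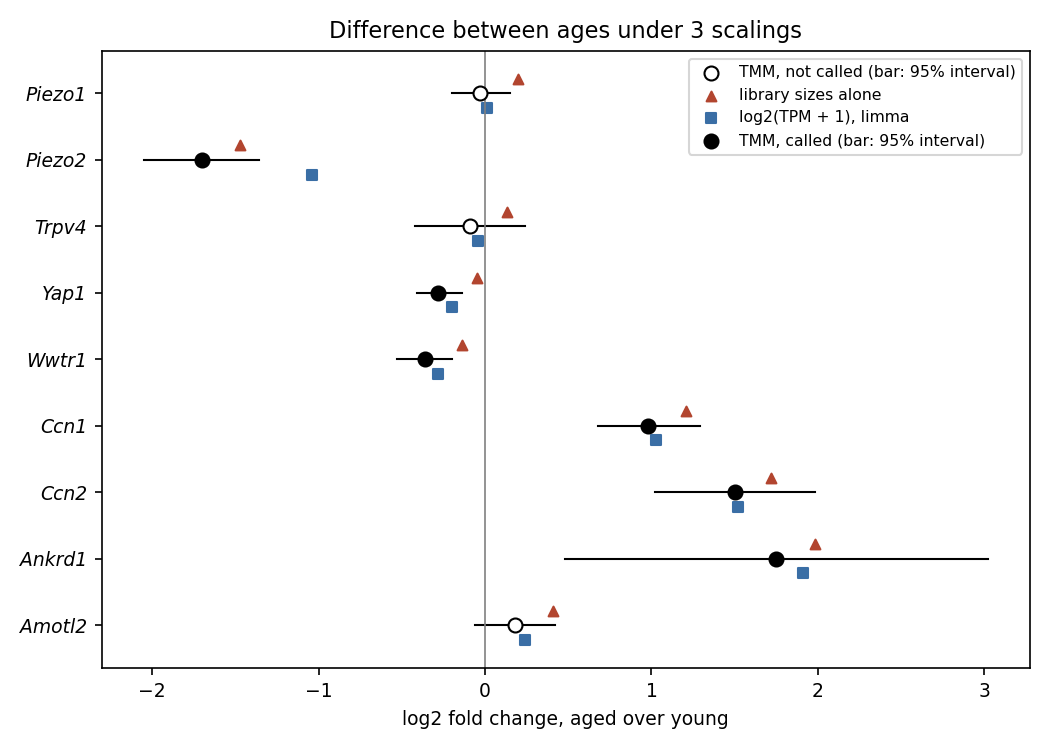
Log2 fold change, aged over young, of each gene. Circles with 95% intervals are the TMM-scaled edgeR fit (filled where called), triangles use library sizes alone and squares are limma on log2(TPM + 1). Yap1 moves from -0.28 with TMM factors to -0.05 with library sizes alone. Piezo1 and Trpv4 change direction between the 3 scalings, and the other members keep theirs.

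Ccn2, which encodes the secreted matricellular protein CTGF and is a known product of growth cartilage, had the largest rise among the members at high expression. Its lowest, median and highest values were 678, 1011 and 1756 CPM in aged libraries and 270, 377 and 532 CPM in young ones. Every aged library lay above every young one. The log2 fold change was 1.50 ± 0.22 (SE, edgeR adjusted p = 1.24e-04), which is 2.83 times the young level. Without aged replicate 4, the highest library, it was 1.30 and still called.

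Ccn1, the gene of the related secreted protein CYR61 and an early responder to serum and stretch, moved the same way. Its values were 157, 181 and 278 CPM (lowest, median and highest) in aged libraries and 80.0, 93.7 and 131 CPM in young ones. The groups did not overlap, and aged replicate 4 lay far above the other aged libraries. The difference on the log2 scale was 0.98 ± 0.14 (SE, edgeR adjusted p = 8.93e-05), or 1.98 times the young level, and it was 0.85 without aged replicate 4.

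The 2 CCN genes also varied together inside each age. Aged replicate 4 was highest in both, and young replicates 5 and 6 were the highest young libraries in both. The correlation of their log2 CPM was 0.89 over the 6 aged and 0.82 over the 7 young libraries, given as a description of libraries that share depth and tissue make-up. Ccn2 was the gene most like Ccn1 of 11302 genes searched (r = 0.85 over 13 libraries, each gene centred on its age mean). The genes most like Ccn2 were Muc1 and Trabd (r = 0.92 and 0.85), of which Muc1, the gene of an epithelial mucin, was called higher at 0.74 ± 0.22 (SE, edgeR adjusted p = 0.0123) and Trabd was not called.

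Blood cell markers moved with age beside the CCN genes. All 13 erythroid markers and 11 of 13 neutrophil markers were called higher, with summed levels of 635 to 2073 CPM (erythroid) and 1242 to 6130 CPM (neutrophil) in aged libraries, against 46.3 to 276 CPM (erythroid) and 618 to 1961 CPM (neutrophil) in young ones. None was at 0 in all libraries. The mean log2 CPM of both lists ran from 5.07 to 7.18 in aged and 3.02 to 4.66 in young libraries without overlap, so this score and age can hardly be told apart in a fit. Within the aged mice, replicates 6 and 1 had the highest scores and the lowest Ccn2 values (678 and 719 CPM). Among the young mice, replicate 5 was highest in both. With the score as a covariate Ccn2 stood at 1.19 (edgeR adjusted p = 0.0949) and Ccn1 at 0.67 (edgeR adjusted p = 0.115), neither called. Immediate early genes, which like Ccn1 respond quickly to stimuli, were called higher in 6 of 20 cases and lower in 1, at a median log2 fold change of 0.28 against 0.014 over all tested genes. The share called higher was near the background of 24.7% of all tested genes. Dusp1, a phosphatase of that list, averaged 91.0 ± 17.4 CPM in aged (SD, n = 6) and 45.1 ± 8.58 CPM in young mice (SD, n = 7) (log2 fold change 1.01 ± 0.14, SE, adjusted p = 7.65e-05 in edgeR). The transcription factor gene Egr1 and the survival gene Ier3 rose by 0.64 and 0.63, and the AP-1 gene Fosl2 fell by 0.37. The Egr1 call was lost under 4 alternatives, among them the muscle score (0.53, edgeR adjusted p = 0.269) and leaving out aged replicate 2 (0.54, edgeR adjusted p = 0.0525). With the erythroid and neutrophil score Dusp1, Egr1 and Ier3 stood at 0.86, 0.39 and 0.35 (edgeR adjusted p = 0.0601, 0.568 and 0.274), none called. Fos and Jun, the best known of the list and named after their values were seen, were not called, at 0.47 (edgeR adjusted p = 0.225) and 0.00 (edgeR adjusted p = 0.990). The part of blood cells or of an immediate early response in the CCN differences was not tested.

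Ankrd1 encodes a nuclear and sarcomeric ankyrin repeat protein, known as a YAP target in many cells and as a stretch-induced protein of striated muscle. It was low in this tissue, with a lowest, median and highest value of 5.88, 9.28 and 13.2 CPM in aged libraries and 0, 2.89 and 6.59 CPM in young ones. Young replicate 1 had 0 reads, which allows a level of up to 0.174 CPM, and the other young libraries had at most 113. The groups overlapped between young replicate 4 and the lowest aged libraries. Its log2 fold change was 1.75 ± 0.59 (SE, edgeR adjusted p = 0.0265), the largest and least certain among the members, with a 95% interval from 0.48 to 3.02. Limma-voom put it at 2.84 and limma on log2(FPKM + 0.1) at 2.60, both called. The call was lost without aged replicate 2 (1.62, edgeR adjusted p = 0.0559) or young replicate 3 (1.62, edgeR adjusted p = 0.0516).

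Skeletal muscle markers moved with Ankrd1. Of 18 markers 16 were called higher and none lower, their summed level ran from 5899 to 21535 CPM in aged and 732 to 7036 CPM in young libraries, and none was at 0 in all libraries. Within the aged mice, replicates 2, 3 and 5 were highest in both Ankrd1 and the muscle score (the mean log2 CPM of the 18 markers), and among the young mice replicates 4 and 2 were highest in both. Lmod2 and Abra, both genes of striated muscle sarcomeres, were the most like Ankrd1 of all genes searched (r = 0.93 for each over 13 libraries). The paralogues of Ankrd1 in muscle, Ankrd23 and Ankrd2, rose by 2.10 ± 0.53 and 1.92 ± 0.57 (SE, edgeR adjusted p = 0.00568 and 0.0132). Once this score was in the fit, Ankrd1 stood at 0.38 (edgeR adjusted p = 0.711). Ankrd23 and Ankrd2 then stood at 0.46 each (edgeR adjusted p = 0.353 and 0.641), neither called. The score itself differed with age, from 7.13 to 9.27 in aged and 4.95 to 7.64 in young libraries. The part of muscle in the Ankrd1 difference was not tested.

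**Figure D3:**
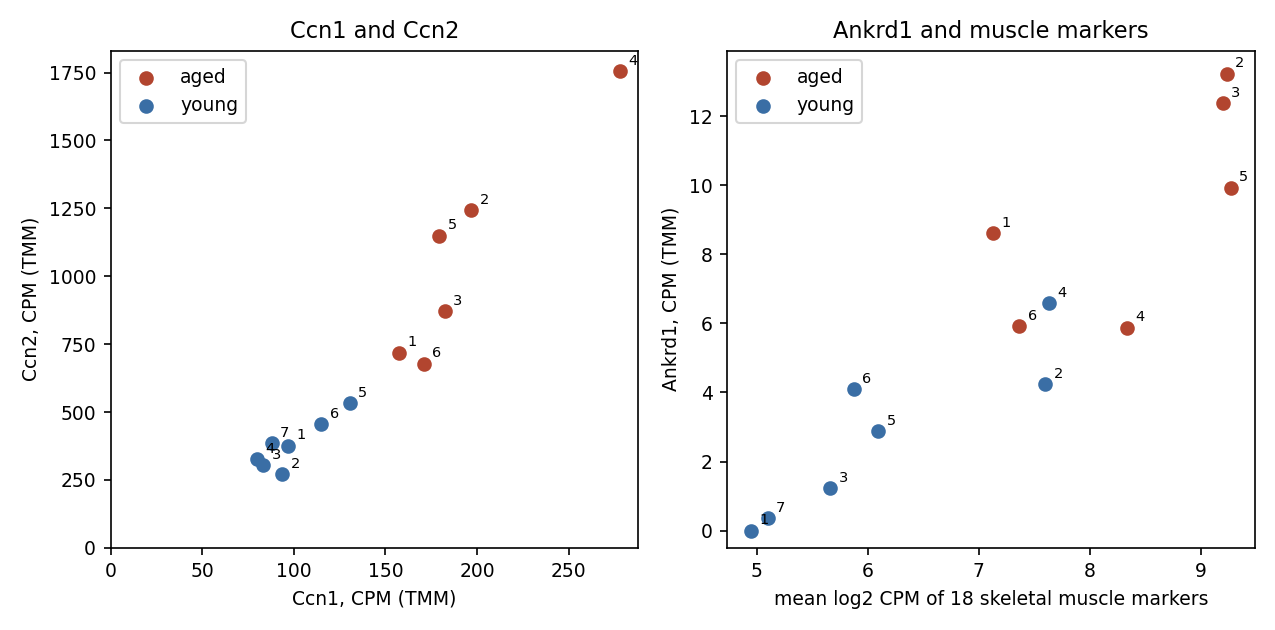
Left, Ccn2 against Ccn1 in CPM, and right, Ankrd1 in CPM against the mean log2 CPM of 18 skeletal muscle markers, 1 numbered point per library (aged red, young blue). Aged replicate 4 tops both CCN genes, whereas aged replicates 2, 3 and 5, with the highest muscle scores, top Ankrd1.

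Amotl2, an angiomotin-like gene that YAP induces and whose protein holds YAP back, was not called. Its lowest, median and highest values were 91.0, 105 and 137 CPM in aged libraries and 85.5, 95.8 and 113 CPM in young ones, with aged replicates 2, 3 and 4 above all young libraries and the other 3 inside their range. In the edgeR fit it stood at 0.18 ± 0.11 (SE, edgeR adjusted p = 0.200), with a 95% interval from -0.06 to 0.42. Amotl2 was called with library sizes alone (0.41, edgeR adjusted p = 0.00566), where the median of all tested genes was 0.24. It was also called on log2(FPKM + 1) (0.37, limma adjusted p = 0.00920) and log2(FPKM + 0.1) (0.38, limma adjusted p = 0.00892). The medians of all tested genes were 0.17 and 0.21 in these fits. Cldn5, a tight junction gene of vessels, and As3mt were the genes most like Amotl2 (r = 0.86 each), and Cldn5 was called lower at -0.57 ± 0.18 (SE, edgeR adjusted p = 0.0202).

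Levels can be set between genes only per transcript length, in the deposited FPKM. Ccn2 led at 551 ± 199 FPKM in aged (SD, n = 6) and 170 ± 41.5 FPKM in young mice (SD, n = 7), which put it at rank 123 of 14067 tested genes in aged and rank 344 in young mice. Ccn1 followed at 122 ± 24.8 FPKM in aged and 53.8 ± 10.2 FPKM in young mice, with no overlap with the third, Piezo1, in aged libraries but with overlap in young ones. Piezo1 stood at 53.2 ± 6.19 FPKM in aged and 47.6 ± 2.86 FPKM in young mice, above Trpv4 at 40.4 ± 9.62 FPKM in aged and 37.2 ± 5.66 FPKM in young mice. Piezo1 and Trpv4 overlapped in aged libraries and not in young ones. Wwtr1, Yap1 and Amotl2 lay close together, at 28.1 ± 2.01, 27.2 ± 1.88 and 30.7 ± 5.54 FPKM in aged mice, and their ranges overlapped. In young mice they were at 31.1 ± 2.32, 28.4 ± 1.08 and 23.3 ± 2.75 FPKM, and all Amotl2 values lay below all Yap1 values. Ankrd1 averaged 6.93 ± 2.30 FPKM in aged libraries. In young libraries it ranged from a value listed at 0 to 4.36 FPKM. Piezo2, at 0.555 ± 0.0817 FPKM in aged and 1.54 ± 0.360 FPKM in young mice, had the lowest mean of the 9 in both. In aged mice every Piezo2 value lay below every Ankrd1 value, but in young mice they overlapped, with Ankrd1 below Piezo2 in replicates 1, 3 and 7. Within each library Piezo2 was at most 0.0432 times Piezo1.

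**Figure D4:**
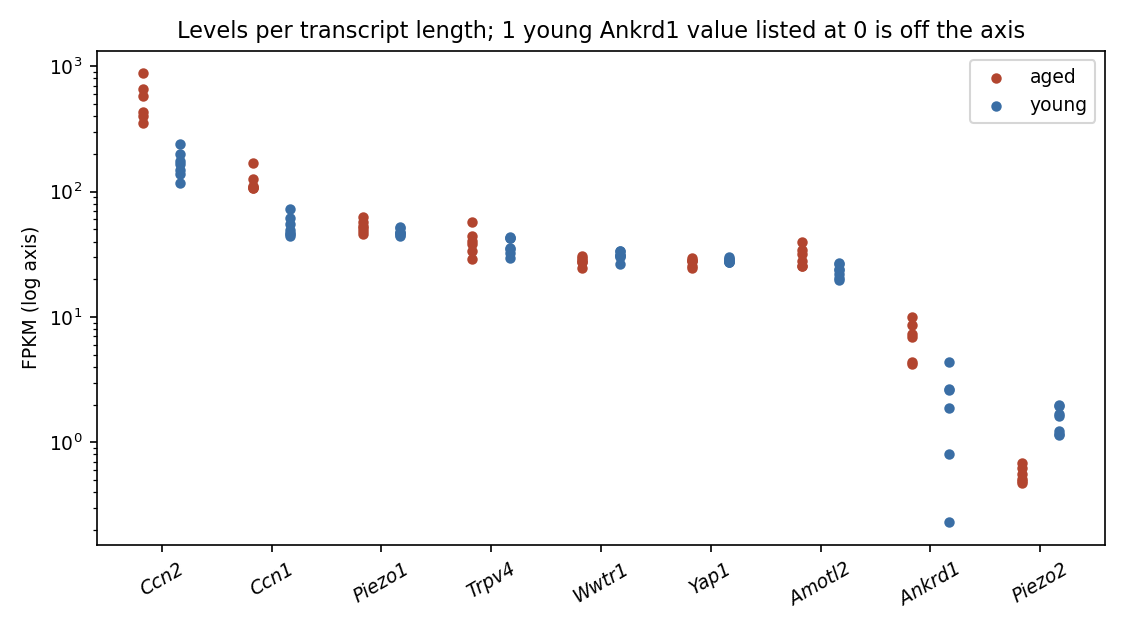
Deposited FPKM of each gene on a log axis, aged libraries (red) left of young ones (blue), ordered by the mean over all libraries. Ccn2 is highest at 351 to 881 FPKM in aged and 118 to 242 FPKM in young libraries, and Piezo2 is low at 0.470 to 0.680 FPKM in aged and 1.15 to 2.00 FPKM in young libraries.

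The genes around the channels moved in both directions. Of 26 other channels named as mechanosensitive or volume-sensitive, 19 were tested, and 6 were called higher and 5 lower in aged mice, at a median log2 fold change of -0.012. The share called was 57.9%, against 46.2% of all tested genes. The largest falls were those of Panx3, a pannexin channel of differentiating chondrocytes and osteoblasts, and of Gja1, the gap junction protein connexin 43. Panx3 averaged 117 ± 28.8 CPM in aged (SD, n = 6) and 303 ± 36.7 CPM in young mice (SD, n = 7) (log2 fold change -1.37 ± 0.15, SE, adjusted p = 1.11e-05 in edgeR). Gja1 averaged 434 ± 61.0 CPM in aged and 965 ± 75.8 CPM in young mice (log2 fold change -1.15 ± 0.09, SE, adjusted p = 7.23e-07 in edgeR). Neither gene overlapped between the ages, and both are also expressed by osteoblasts and osteocytes, most of whose markers were called lower as given above. Of 8 chondrocyte markers, 5 were called lower too and 1 higher. What part these cells have in the Panx3 and Gja1 differences was not tested. Lrrc8e, a volume-regulated anion channel subunit near 1 CPM, fell by 0.90. Pkd1, the gene of polycystin-1, averaged 1018 ± 156 CPM in aged and 601 ± 110 CPM in young mice and did not overlap (log2 fold change 0.76 ± 0.13, SE, edgeR adjusted p = 2.66e-04). The potassium channel gene Kcnk10 and the cation channel gene Trpc6, both at a few CPM, rose by 0.97 each. Both tested partners of PIEZO channels, the MyoD family inhibitor genes Mdfi and Mdfic, fell by 1.04 ± 0.10 and 0.45 ± 0.07 (SE, edgeR adjusted p = 1.95e-06 and 1.03e-04).

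The genes most like the channels across libraries were given by the same correlation of centred log2 CPM over 13 libraries. As for the other members, each is the top of 11302 genes searched. A search of this size favours high r values, and how high they run by chance was not tested. For Piezo1 they were Nelfb and Sfxn3 (r = 0.95 and 0.93), neither of which was called. For Piezo2 they were Adamts15, a metalloproteinase gene, and Mcam, a surface marker of vessel-associated cells (r = 0.84 and 0.83). Both were called lower, at -0.97 ± 0.13 and -0.48 ± 0.13 (SE, edgeR adjusted p = 5.52e-05 and 0.00920). For Trpv4 they were Wwp2, a ubiquitin ligase gene that hosts a cartilage microRNA, and Acan, the aggrecan core protein (r = 0.95 and 0.94). Neither was called, and Acan stood at -0.06 ± 0.18 (SE, edgeR adjusted p = 0.821). For Yap1 they were Harbi1 and Ubl4a (r = 0.92 and 0.90), and for Wwtr1 Elk3 and Ppfibp1 (r = 0.95 and 0.91). Of these 4, Harbi1, Ubl4a and Elk3 were called lower, with Elk3, an ETS factor gene, at -0.43 ± 0.07 (SE, edgeR adjusted p = 2.34e-04). Yap1 and Wwtr1 themselves correlated at 0.61 over the same 13 libraries.

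Upstream of the coactivators, the Hippo genes were mostly a little lower. Of 17 Hippo kinases and regulators, 10 were called lower and 1 higher in aged mice, with a median of -0.17. Of all tested genes, 21.6% were called lower and 24.7% higher. Map4k4, a kinase that can activate LATS, averaged 175 ± 19.3 CPM in aged (SD, n = 6) and 339 ± 16.6 CPM in young mice (SD, n = 7). The log2 difference, -0.95 ± 0.07 (SE, adjusted p = 4.28e-07 in edgeR), was the largest of the list. Dchs1, a large cadherin, and Stk3, the kinase MST2, fell by 0.65 and 0.48, while the kinase gene Taok3 rose by 0.35. Lats1 and Lats2, the kinases that act on YAP and TAZ directly, fell by 0.20 ± 0.07 and 0.17 ± 0.05 (SE, edgeR adjusted p = 0.0274 and 0.0118), and are named here after their values were seen. Falls of this size are smaller than the shift of 0.24 that scaling by library size alone puts on the median of all genes.

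Among the DNA-binding partners and cofactors, 2 of 10 were called higher and 2 lower, at a median of -0.073. The share called was 40.0%, against 46.2% of all tested genes. Tead2 averaged 11.3 ± 1.21 CPM in aged (SD, n = 6) and 26.8 ± 1.97 CPM in young mice (SD, n = 7) (log2 fold change -1.24 ± 0.08, SE, adjusted p = 8.49e-08 in edgeR) and did not overlap. The other TEAD genes, named after their values were seen, were not called: Tead1 stood at 0.12 (edgeR adjusted p = 0.392), Tead3 at -0.06 (0.715) and Tead4 at 0.30 (0.313). Vgll2 and Vgll3, vestigial-like cofactors that bind TEAD, rose by 1.86 ± 0.59 and 1.59 ± 0.32 (SE, edgeR adjusted p = 0.0201 and 0.00114) at low levels of 11.3 and 1.29 CPM in aged and 3.11 and 0.420 CPM in young mice. Vgll2 is a skeletal muscle gene. Once the muscle score was in the fit, Vgll2 stood at 0.20 and Vgll3 at 0.87 (edgeR adjusted p = 0.831 and 0.162). The part of muscle in these differences was not tested. Amotl1, an angiomotin relative of Amotl2, fell by 0.40.

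A published set of YAP and TAZ target genes, defined in tumours, gave both directions. Beyond the 4 targets above it has 18 members, of which 7 were called higher and 5 lower, at a median of 0.11. The share called was 66.7%, against 46.2% of all tested genes. Lats2, also in the Hippo list, and Ptpn14, also in the cofactor list, are counted in both and were named after their values were seen. F3, the gene of tissue factor, averaged 39.4 ± 11.4 CPM in aged (SD, n = 6) and 11.2 ± 3.22 CPM in young mice (SD, n = 7) (log2 fold change 1.82 ± 0.21, SE, adjusted p = 1.65e-05 in edgeR). Nt5e, the adenosine-producing enzyme CD73, averaged 375 ± 133 CPM in aged and 137 ± 14.6 CPM in young mice (log2 fold change 1.46 ± 0.18, SE, adjusted p = 2.69e-05 in edgeR). Neither gene overlapped between the ages. Gadd45a, a stress response gene, rose by 0.71. Igfbp3, a binding protein of insulin-like growth factors, fell by 0.60 ± 0.11 (SE, edgeR adjusted p = 7.00e-04), and Fjx1 and Rbms3 fell by 0.47 and 0.39. Among the 4 other CCN family genes, Ccn3 rose by 1.56 ± 0.27 (SE, edgeR adjusted p = 3.96e-04), at 17.5 ± 7.39 CPM in aged and 5.94 ± 1.94 CPM in young mice, and Ccn6 fell by 0.83 near 1 CPM, a call lost under 9 of 26 alternatives. Ccn4 and Ccn5 were not called.

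**Figure D5:**
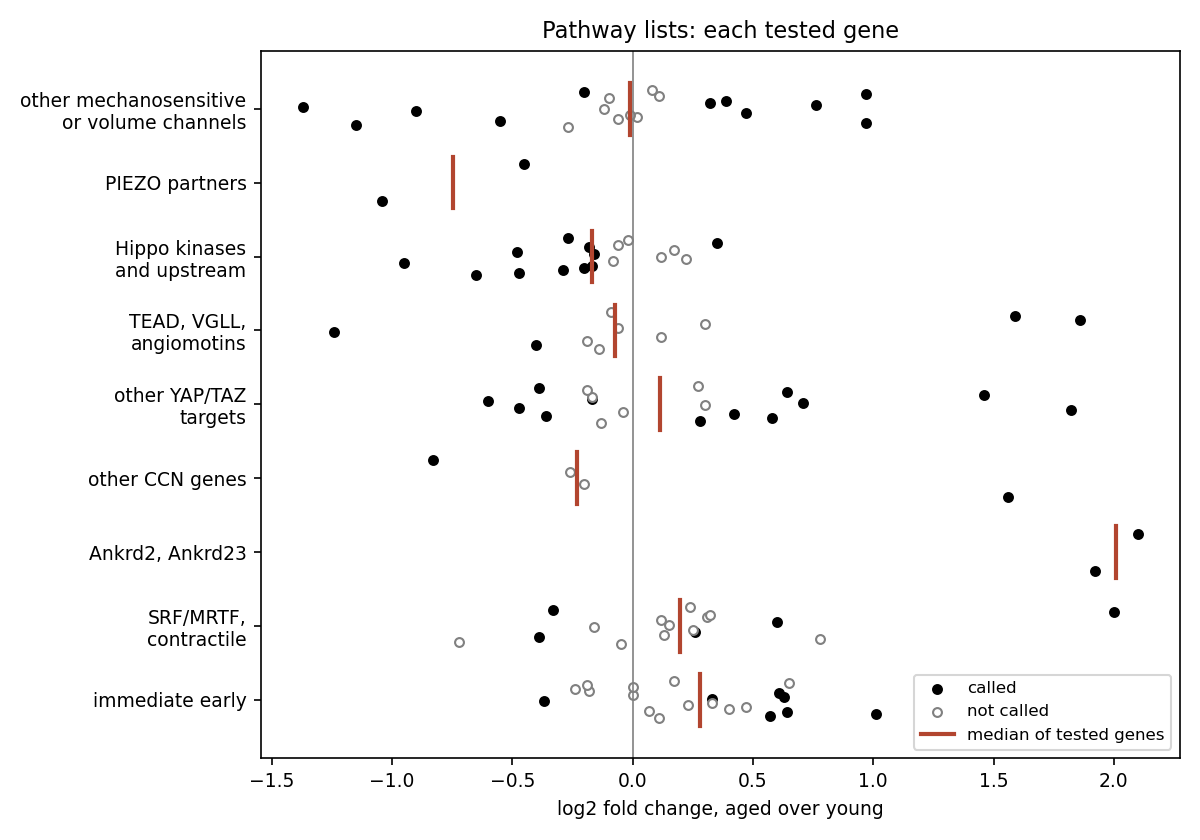
Log2 fold change, aged over young, of each tested gene in 9 pathway lists; filled points were called, open points were not, and the red bar is the median of the list. Hippo genes lie mostly below 0 (10 of 17 called lower, against 21.6% of all tested genes). The other YAP and TAZ targets spread to both sides (7 higher and 5 lower of 18).

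The contractile machinery can carry tension to YAP and TAZ. Of 16 genes of the SRF and MRTF contractile programme, which overlaps with YAP targets, 3 were called higher and 2 lower, at a median of 0.19, a share of called genes below the 46.2% of all tested genes. Tpm2 rose by 2.00 ± 0.43 (SE, edgeR adjusted p = 0.00206), and this tropomyosin is abundant in skeletal muscle, whose markers rose as given above. With the muscle score in the fit Tpm2 stood at 0.31 (edgeR adjusted p = 0.378), not called. The part of muscle in the Tpm2 difference was not tested. Myl9, a smooth muscle myosin light chain, rose by 0.60, and Cnn2 and Tpm4 fell by 0.39 and 0.33. With the same score they stood at 0.47, -0.27 and -0.13 (edgeR adjusted p = 0.0975, 0.0996 and 0.643), none called. The Tpm4 call (edgeR adjusted p = 0.0396) was lost under 17 of 26 alternatives. Flna, the actin cross-linker filamin A, rose by 0.26 (edgeR adjusted p = 0.0467), a call lost under 14 of 26 alternatives. It was still called with the muscle score, at 0.47 (edgeR adjusted p = 0.0243).

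The label of the tissue was set beside markers of cartilage and of other cells, and the depth was alike in all libraries. Of 8 chondrocyte markers, 5 were called lower in aged mice, 1 higher, and 2 were not called. Col2a1, the main cartilage collagen, was at 6836 ± 3143 CPM in aged (SD, n = 6) and 25340 ± 5037 CPM in young mice (SD, n = 7), while the matrix protein gene Comp was called higher, at 6286 ± 1872 CPM in aged and 3100 ± 355 CPM in young mice. Acan and the transcription factor gene Sox9 stood at -0.06 and 0.11 and were not called. The markers other than Matn1 were detected in every library, whereas Matn1 had 0 to 2 reads per aged library and 7 to 15 per young library. The summed level of the list ran from 12500 to 27091 CPM in aged and 29182 to 44533 CPM in young libraries. The osteoblast and osteocyte sum, mostly Col1a1, was higher than the chondrocyte sum in every library. It ran from 28522 to 41074 CPM in aged and 106210 to 127917 CPM in young libraries. The skeletal muscle sum, up to 21535 CPM, was above the chondrocyte sum in aged replicates 2, 3 and 5. The libraries thus hold bone, muscle and blood cell markers beside those of cartilage. Of the markers of other cells, 2 of 13 endothelial markers were called higher and 5 lower, 1 of 6 mural and smooth muscle markers was called lower and none higher, and 2 of 7 macrophage markers were called higher and 2 lower. Of 6 adipocyte markers 3 were tested, of which 2 were called higher. The summed levels of these 4 lists overlapped between the ages. The deposited counts summed to between 16356839 and 17876681 per aged library and between 17531694 and 18203443 per young library.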

How the data were processed

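The authors deposited 1 table with expected counts, FPKM and TPM per gene and library, per the file headers; 5.3% of the expected count values were not whole. RSEM 1.3.1, HISAT2 2.1.0, DESeq2 1.4.5 and Bowtie2 2.3.4.3 with build GRCm39 stand in the submitters' processing notes, with no roles given. Per the labels' protocols, oligo(dT) beads were used and reads were paired and stranded. Titles gave each library's age. The test was edgeR 4.0.16 in R 4.3.3 on the rounded expected counts (filterByExpr, minimum count 10 and minimum total 15; TMM factors; robust glmQLFit and glmQLFTest; Benjamini-Hochberg over 14067 genes). The SE is the fold change divided by the square root of F. Log2 CPM used a prior count of 2. Counting error is small at this depth for genes with many reads. It is larger at low levels, as for Piezo2 (88 to 119 reads per aged library) and Ankrd1 (0 to 113 per young library). The same holds for genes near 1 CPM. Alternatives used limma 3.58.1 and DESeq2 1.42.0 and are listed with their effect at the end. The members, gene lists and comparisons were chosen with earlier results of these data known. Genes were named by a rule: every member, up to 3 called genes per list and direction, and the 2 genes most correlated with each member. Genes outside it are marked as such. One further gene list is not reported here. The fit was tested on simulated counts. Every pair of same-age libraries differed by more than sampling noise (smallest chi-square per degree of freedom 10.1). Intervals cover 95%. Figures used matplotlib 3.10.9.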

Additional observations from a re-analysis of the deposited data

Results flagged for a closer look

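In 88 sets of values (44 genes in 2 ages), 6 held 1 library far from the others of its age, and chance alone gives about 1 such set in 20. Of the members, Piezo1 was at 357 CPM in young replicate 7, against 289 to 312 CPM in the other young libraries, and Ccn1 at 278 CPM in aged replicate 4, against 157 to 197 CPM in the other aged libraries. Of the other genes, Ankrd23 and Ankrd2 stood at 222 and 16.9 CPM in young replicate 2, against at most 104 and 6.38 CPM in the other young libraries. Flna stood at 1051 CPM in young replicate 7, against 874 to 945 CPM. Fosl2 stood at 114 CPM in aged replicate 5, against 157 to 182 CPM in the other aged libraries.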

How the results depend on the processing

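Piezo2 kept its call and direction under all 26 alternatives, Ccn1 and Ccn2 under 25 (all but the erythroid and neutrophil score), Yap1 and Wwtr1 under 22 and Ankrd1 under 21. With library sizes alone 7034 genes were called higher and 1253 lower, and 5 members higher and 1 lower, with Piezo1 at 0.20 and Trpv4 at 0.13. On log2(FPKM + 1) the genes were 6250 and 1361, on log2(FPKM + 0.1) 6234 and 1366. Each had 4 members higher and 1 lower, Piezo1 at 0.15 and Trpv4 at 0.10. On log2(TPM + 1) Piezo1 was at 0.01. Once the muscle score was in the fit, 1897 genes were called higher and 1666 lower, Piezo1 stood at 0.01 and Amotl2 at -0.07. With the erythroid and neutrophil score 1324 were higher and 1096 lower, with 0 members higher and 1 lower (at an unadjusted p under 0.05: 2 higher, Ccn1 and Ccn2). Piezo1 then stood at 0.22, Trpc6 at -0.03, Lrrc8e at 0.21, Taok3 at -0.10, Amotl1 at 0.24 and Gadd45a at -0.01. Leaving out 1 library gave 3149 to 3413 genes higher, 2739 to 3100 lower, 2 to 3 members higher and Piezo1 from -0.09 to 0.01. Same-numbered libraries did not deviate together in every pair (correlations from -0.12 to 0.258). This does not settle whether the numbers pair them, and the labels do not say so, so the main fit treated them as unpaired. With the number as a replicate block on replicates 1 to 6, 3068 genes were called higher and 2703 lower, Ankrd1 was not called (1.77, edgeR adjusted p = 0.0643) and Piezo1 stood at 0.00. Of the named list genes, 25 lost their call under 1 or both of these scores. The 35 list genes kept direction and call in 827 of 909 values. The cause of these shifts was not tested, and precision is limited by 6 and 7 libraries.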

Other observations

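Ratios of deposited FPKM within a library do not depend on how libraries are scaled to each other. They were chosen after the values were seen and are given without a test. The ratio of Piezo2 to Piezo1 had a lowest, median and highest value of 0.00881, 0.0103 and 0.0141 in aged libraries and 0.0250, 0.0314 and 0.0432 in young ones, with no overlap. The ratio of Ccn2 to Yap1 was 13.8, 18.5 and 31.7 in aged and 4.27, 5.86 and 8.30 in young libraries, again with no overlap. The ratio of Ccn1 to Yap1 was 3.70, 4.31 and 6.12 in aged and 1.53, 1.81 and 2.48 in young libraries, also without overlap. That of Amotl2 to Yap1 was 0.899, 1.14 and 1.42 in aged and 0.697, 0.804 and 0.959 in young libraries, which overlap. The balance of both coactivators was alike at both ages, with Yap1 at 0.864 to 1.07 times Wwtr1 in aged and 0.822 to 1.02 times in young libraries. The ratio of Ccn2 to Ccn1 ranged from 3.26 to 5.26 in aged and from 2.36 to 3.59 in young libraries, which overlap.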
